A study of Rattus norvegicus with 6 samples.

Results

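The lysosome's enzymes and membrane proteins were represented by 34 genes, chosen by name as well-known lysosomal hydrolases, lipid-handling proteins, membrane proteins, proton pump subunits and regulators. All 34 were found among the 32623 genes of the libraries, and all 34 passed the filter on low counts, which kept 12742 genes. RNA came from the sinusoidal endothelial cells of Han Wistar rat livers, the fenestrated cells that line the capillaries of the liver, cultured in the Exoliver device together with hepatocytes, stellate cells and hepatic macrophages. Pathological libraries (n = 3) came from cells held at 12 mmHg and physiological libraries (n = 3) from cells held at 1 mmHg, and in both groups the shear stress was 1.15 dyn/cm2 and the culture lasted 48 h. The comparison asks what a raised hydrodynamic pressure does to these cells. No source used here gives the age of the rats or the number of animals or cultures behind a library, so the p-values reflect the spread of these 6 libraries alone, and that spread may be technical.

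A lysosome is an acidic compartment in which hydrolases degrade material delivered by endocytosis, phagocytosis and autophagy. Its membrane carries heavily glycosylated proteins and a proton pump that keeps the lumen acidic, and the transcription factor TFEB switches on many of its genes when mTORC1 signalling falls. Liver sinusoidal endothelial cells are known as scavengers: they clear macromolecules from the blood through endocytic receptors and degrade them in their lysosomes.

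The 6 libraries held between 8925149 and 24025406 counts, and they differed in RNA of other liver cells. The 24 genes matched from a list of hepatocyte markers summed to 454.5, 771 and 73576 CPM (counts scaled to a common library total) in pathological libraries 1, 2 and 3, against 304, 52454 and 37212 CPM in physiological libraries 1, 2 and 3. Pathological libraries 1 and 2 and physiological library 1 are therefore called hepatocyte-poor, and the other 3 hepatocyte-rich. Endothelial markers were uneven too: the 14 matched pan-endothelial genes summed to 844, 942 and 2788 CPM at pathological pressure, against 1381, 3035 and 2304 CPM at physiological pressure. The endothelial cadherin gene Cdh5 had 199, 220 and 184 CPM at pathological pressure, against 319.9, 227 and 215 CPM at physiological pressure, but the VEGF receptor gene Kdr had 4.18, 13.6 and 487 CPM against 43.8, 502 and 355 CPM. The sinusoidal marker Lyve1 had 41.3, 75.9 and 2015 CPM at pathological pressure, against 248, 1695 and 1618 CPM at physiological pressure, and the pan-endothelial marker Cldn5 was at 0 in all 6. Mitochondrial-genome transcripts took 0.489%, 0.388% and 5.35% of counts at pathological pressure, against 1.35%, 4.46% and 19.7% at physiological pressure. The 20 matched sinusoidal genes summed to 1209, 635 and 8122 CPM at pathological pressure, against 1841, 7112 and 5770 CPM at physiological pressure. The 17 matched stellate cell genes summed to 443, 472 and 1769 CPM, against 557, 1333 and 1443 CPM. Both sums were thus lower in every hepatocyte-poor library than in any hepatocyte-rich one, but not every gene followed. The stellate cell gene Reln made up most of its list's sum in the hepatocyte-poor libraries. It had 426, 435 and 0.948 CPM at pathological pressure, against 518, 78.9 and 25.8 CPM at physiological pressure. The sinusoidal gene Cd36 had 274, 0 and 0.0474 CPM, against 182, 0.984 and 0.285 CPM. Gata4, with 191, 259 and 308 CPM against 155, 274 and 180 CPM, did not divide by class either. Fits that use the hepatocyte class are given after the single genes. The part of the endothelial, stellate cell and mitochondrial differences was not tested.

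No lysosomal gene changed past the threshold between pathological and physiological pressure. In edgeR's quasi-likelihood test 0 of 34 had an adjusted p under 0.05, against 0.0% of all 12742 genes, and 0 of 34 had an unadjusted p under 0.05, against 0.259% of all genes. DESeq2 called 0 of 34 as well, and 1 of all 12742 genes. With or without sample weights, limma-voom called 0 of 34 and 0 of all genes. In limma-voom with sample weights 6 of 34 had an unadjusted p under 0.05, against 19.8% of all genes. The adjusted p was 1.00 for every member with edgeR. The 2 pressures overlapped for each of the 34 genes. Groups without overlap were rare among all genes too, at 4.61% (1.56% with the pathological libraries higher and 3.05% with them lower). The fitted log2 fold change was positive (pathological higher) for 24 members and negative for 10, or 29.4% negative against 47.5% of all genes. The signs were not stable: 31 of 34 turned under at least 1 of 18 alternatives, and Psap, Gusb and Man2b1 were the 3 that did not. Its median was 0.32 over the members and 0.05 over all genes. The median depended on single libraries: it was 0.11 without pathological library 1, 0.48 without pathological library 3, 0.71 without physiological library 1 and 0.13 without physiological library 3, beside all-gene medians of -0.05, 0.07, 0.30 and -0.02. The 34 genes summed to 15042, 14756 and 6770 CPM in pathological libraries 1 to 3, against 12159, 8504 and 7113 CPM in physiological libraries 1 to 3, or 12189 ± 4695 and 9259 ± 2606 CPM (SD, n = 3 each). The 3 largest sums belonged to the 3 hepatocyte-poor libraries, 1 of which was physiological. In bulk RNA, fewer cells of a type and less RNA per cell cannot be told apart. Replicates spread widely, with a biological coefficient of variation of 1.393 in edgeR and a median standard error of 1.72 for log2 fold changes over all genes. Among the members this error ran from 0.57 for Npc2 to 2.09 for Glb1. Differences of the size seen here were not detectable at this spread.

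**Figure D1:**
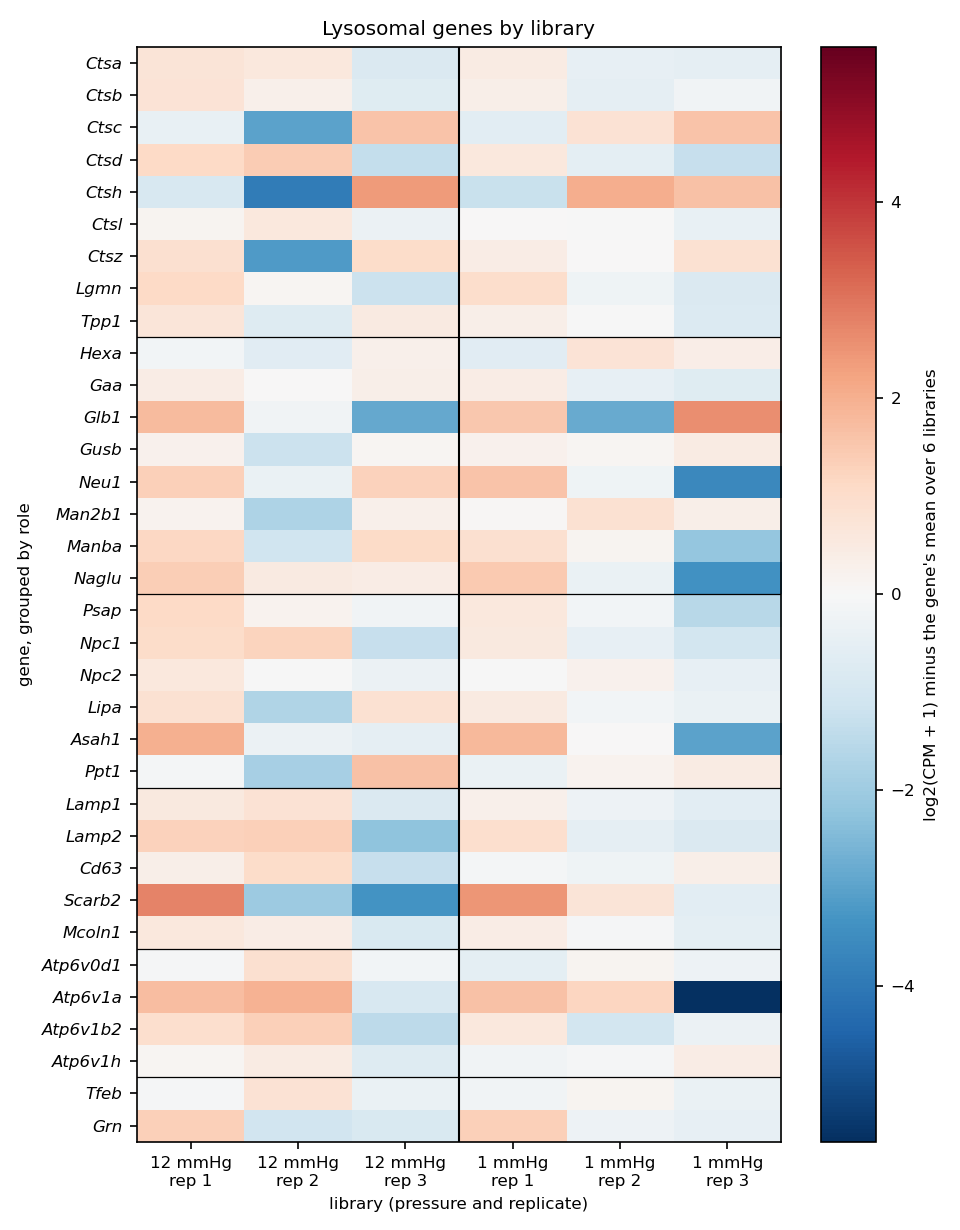
Level of each of the 34 genes (rows, grouped by role) in each library (columns, 12 mmHg left of 1 mmHg), as log2(CPM + 1) minus the gene's mean over the 6 libraries; red is above and blue below that mean. Many rows are red in pathological libraries 1 and 2 and in physiological library 1, and blue in pathological library 3, and Ctsc, Ctsh and Ctsz are deep blue in pathological library 2.

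**Figure D2:**
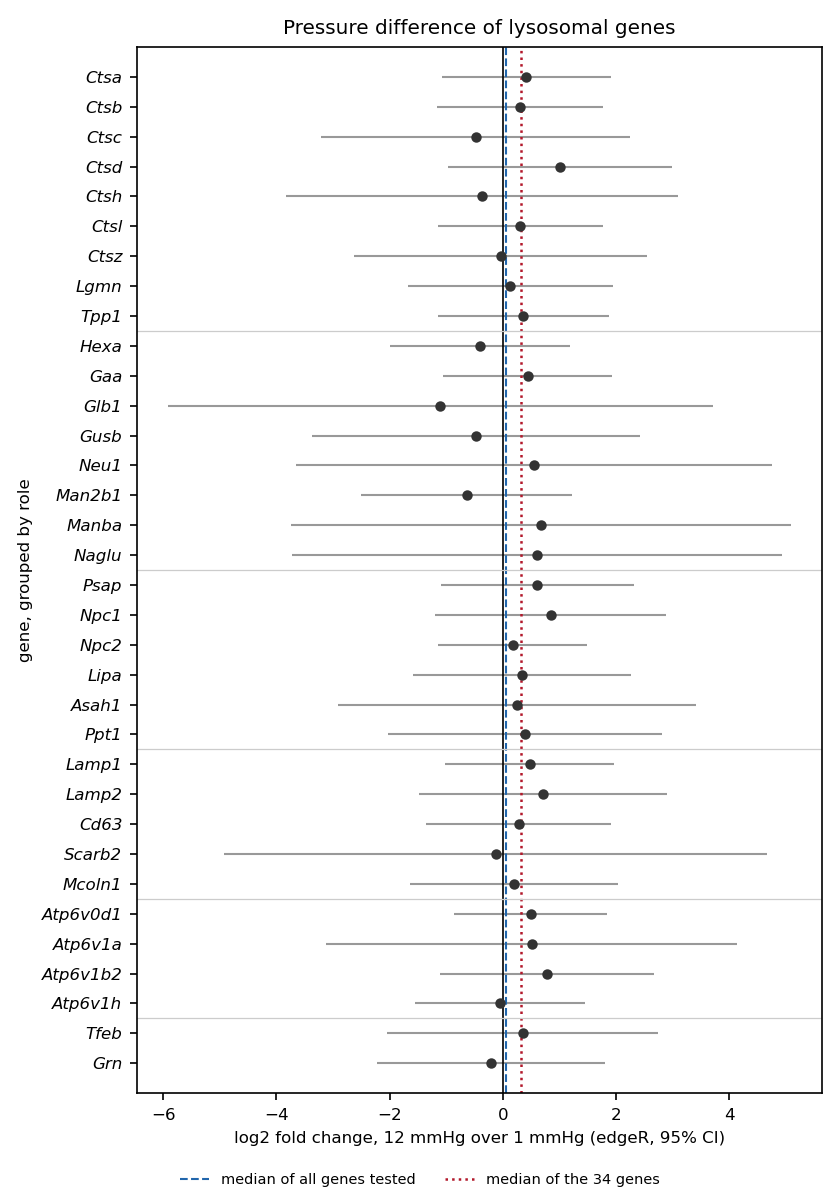
Log2 fold change of each of the 34 genes, 12 mmHg over 1 mmHg (points), with its 95% confidence interval from edgeR (bars); the dashed line is the median of all 12742 genes, 0.05, and the dotted line that of the 34 genes, 0.32. Every interval crosses 0, and 24 of 34 points lie right of it.

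Promoter sequences are shown because lysosomal genes are known for a shared E-box-like element, the CLEAR element, to which TFEB binds in mammals. RefSeq windows of 300 bases on GRCr8, from 250 before to 50 after the gene's start, were found by symbol for 27 of the 34 genes; Atp6v1b2, Hexa, Psap, Ppt1, Asah1, Atp6v1h and Ctsb had no entry. The 6-base core CACGTG, which reads the same on both strands, stood in 7 of 27 member promoters (25.9%), against 6.42% of 33469 promoters. Extended by 1 base on each side to TCACGTGA, which contains the core, it stood in 4 of 27 (14.8%), against 0.777% of all promoters; these were Atp6v0d1, Ctsd, Lamp1 and Mcoln1. The 10-base form GTCACGTGAC, which contains both, stood in 0 of 27 and in 0.233% of all. The Lamp1 window (chr16:83075076-83075266, minus strand) held 5 cores, starting at -183, -167, -150, -65 and -38 from the gene's start. Ctsd (chr1:206968822-206968998, minus strand) held 2, at -157 and -10, and Mcoln1 (chr12:6358216-6358257, plus strand) held 2, at -22 and, outside the stretch shown, at 5. In Mcoln1 the form TCACGTGA lies around the core at 5, because the core at -22 is followed by T. Atp6v0d1 (chr19:50357275-50357320, minus strand) and Cd63 (chr7:1921934-1921979, plus strand) held 1 each, at -52 and -190, and so did Gaa at -67 and Glb1 at -100. The stretches around the cores read 5′ to 3′ in the direction of the gene, with each core in capitals.
Lamp1: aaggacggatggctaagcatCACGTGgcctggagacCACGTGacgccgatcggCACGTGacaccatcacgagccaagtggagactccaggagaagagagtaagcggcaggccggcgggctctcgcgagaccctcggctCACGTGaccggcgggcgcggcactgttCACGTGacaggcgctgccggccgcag
Ctsd: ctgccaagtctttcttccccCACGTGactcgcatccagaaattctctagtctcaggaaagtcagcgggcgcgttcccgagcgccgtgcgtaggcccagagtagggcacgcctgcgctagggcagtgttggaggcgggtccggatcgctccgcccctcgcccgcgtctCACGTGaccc
Mcoln1: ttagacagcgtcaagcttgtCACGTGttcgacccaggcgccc
Atp6v0d1: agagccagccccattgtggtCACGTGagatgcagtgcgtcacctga
Cd63: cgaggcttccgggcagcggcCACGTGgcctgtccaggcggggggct
These matches describe letters and are not evidence of binding. The median log2 fold change was 0.44 for the 7 genes with a core (6 positive, range -1.10 to 1.01) and 0.32 for the 20 without (13 positive). Among the other lists, the core stood in 7 of 28 promoters of further lysosomal hydrolases, in 7 of 28 of further lysosomal membrane proteins, in 1 of 12 of further pump subunits, in 3 of 15 of TFEB and mTORC1 genes, in 7 of 32 of endosomal sorting genes and in 4 of 27 of autophagy genes. It stood in 0 of 14 scavenger receptor, 0 of 18 hepatocyte marker and 0 of 16 sinusoidal marker promoters.

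**Figure D3:**
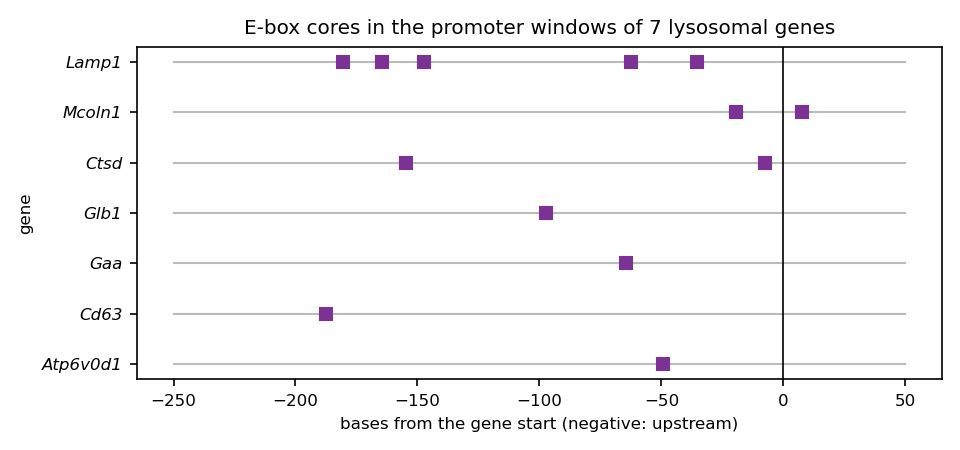
Position of each CACGTG core in the promoters of the 7 genes that hold it; the x axis is the distance in bases from the gene's start (negative is upstream) and each mark is 1 core. Lamp1 has 5 cores, Ctsd and Mcoln1 have 2 each and the other 4 genes 1 each.

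Among the 9 proteases, 6 log2 fold changes were positive and 3 negative, with a median of 0.30. Their CPM summed to 7731, 8117 and 3881 at pathological pressure, against 6399, 4634 and 3893 at physiological pressure. Ctsd, the aspartic protease cathepsin D, had 1706, 2146 and 319.8 CPM in pathological libraries 1, 2 and 3, against 1199, 547 and 328 CPM in physiological libraries 1, 2 and 3. The 2 highest libraries were pathological and so was the lowest, which lay just under the lowest physiological one. Its log2 fold change of 1.01 (95% CI -0.97 to 2.99), a fitted fold of 2.01, was the largest of the 34, and its edgeR p was 0.275 before and 1.00 after adjustment. Ctsb, the cysteine protease cathepsin B, had 1691, 1227 and 619 CPM at pathological pressure, against 1269, 710.0 and 888 CPM at physiological pressure. Ctsl, cathepsin L, had 2859, 3897 and 2105 CPM at pathological pressure, against 2664, 2546 and 1949 CPM at physiological pressure. Its libraries spanned the narrowest range of these 3 cathepsins, and the 2 groups overlapped in it too. Ctsb and Ctsl had log2 fold changes of 0.30 (95% CI -1.16 to 1.77) and 0.31 (95% CI -1.14 to 1.76). Lgmn, the asparaginyl endopeptidase legumain that processes cathepsins, had 730.3, 365 and 147 CPM at pathological pressure, against 666, 282 and 188 CPM at physiological pressure. It fell into the same order in both groups, library 1 highest and library 3 lowest, and its log2 fold change was 0.13 (95% CI -1.68 to 1.94). Ctsc, the dipeptidyl peptidase that activates serine proteases of leukocytes, went the other way across libraries. It had 28.8, 3.93 and 118 CPM at pathological pressure, against 25.3, 67.8 and 118 CPM at physiological pressure, with a log2 fold change of -0.48 (95% CI -3.21 to 2.24). Ctsh, an aminopeptidase, and Ctsz, a carboxypeptidase, were singled out after their values were seen because they were also lowest in pathological library 2. Ctsh had 17.3, 1.23 and 177 CPM at pathological pressure, against 13.1, 135 and 104 CPM at physiological pressure. Ctsz had 60.6, 2.75 and 67.5 CPM at pathological pressure, against 43.0, 32.7 and 58.4 CPM at physiological pressure. The macrophage marker Cd68 was also lowest there, with 185, 5.59 and 93.9 CPM at pathological pressure, against 104, 48.1 and 105 CPM at physiological pressure. The remaining proteases were Ctsa, the carboxypeptidase that protects other lysosomal enzymes, and Tpp1, a tripeptidyl peptidase, with log2 fold changes of 0.41 and 0.36.

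**Figure D4:**
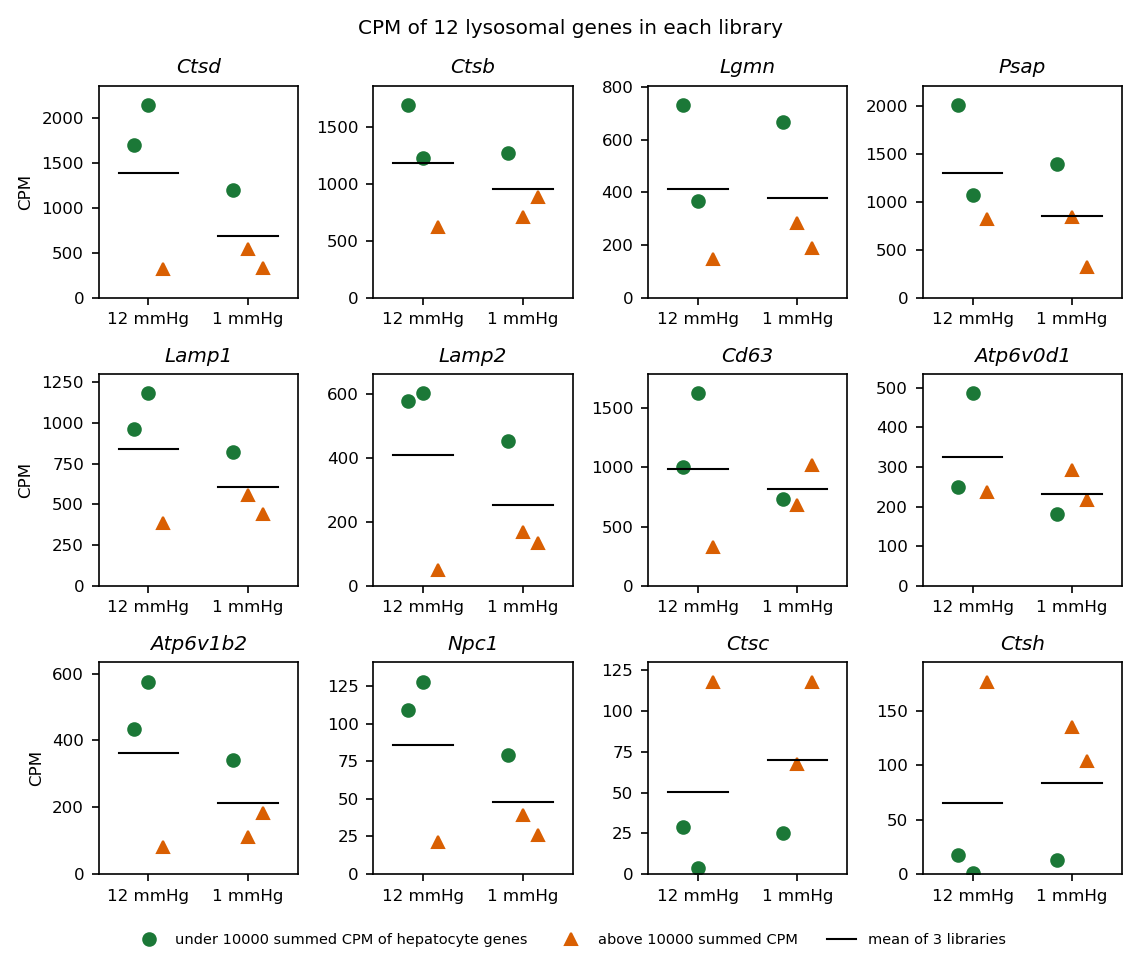
CPM of 12 lysosomal genes in each library, 12 mmHg left of 1 mmHg; circles are hepatocyte-poor and triangles hepatocyte-rich libraries, and the line is the mean of 3 libraries. For Ctsd, Lamp2 and Npc1 every circle lies above every triangle in both groups, and for Ctsc and Ctsh every circle lies below every triangle.

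The 8 glycosidases, which strip sugars from glycoproteins, glycolipids and glycosaminoglycans, had 4 positive and 4 negative log2 fold changes with a median of 0.02. Their summed CPM was 335, 175 and 317 at pathological pressure, against 314, 309.6 and 275 at physiological pressure. Man2b1, a lysosomal alpha-mannosidase, had 58.9, 14.8 and 62.2 CPM at pathological pressure, against 53.3, 93.5 and 64.7 CPM at physiological pressure. Pathological library 2 was far below the other 5, and the log2 fold change was -0.64 (95% CI -2.50 to 1.23). Hexa, the alpha subunit of beta-hexosaminidase A, had 64.7, 46.1 and 90.2 CPM at pathological pressure, against 46.8, 124 and 95.9 CPM at physiological pressure, and its log2 fold change was -0.41 (95% CI -2.00 to 1.19). Gusb, beta-glucuronidase, had 16.1, 5.22 and 14.5 CPM at pathological pressure, against 16.1, 14.7 and 18.8 CPM at physiological pressure. Only pathological library 2 lay outside a narrow band, and the log2 fold change was -0.47 (95% CI -3.36 to 2.42). Glb1, beta-galactosidase, had the most negative log2 fold change of the 34, -1.10 (95% CI -5.91 to 3.71), which rests on libraries with almost no counts and was 0.12 with a replicate block and 2.73 in limma-voom with sample weights. Its counts were 737, 124 and 1 in pathological libraries 1 to 3, against 664, 2 and 334 in physiological libraries 1 to 3. Each group thus held 1 library near 0, and both of these were hepatocyte-rich. The other hepatocyte-rich library, physiological library 3, had the highest CPM of all. It had 47.6 CPM, against 26.4 CPM in pathological library 1 and 21.8 CPM in physiological library 1. Neu1, a sialidase, and Naglu, which degrades heparan sulfate, were named after their values were seen because each was at 0 in physiological library 3, where a floor of 3 counts equals 0.428 CPM. Neu1 had 29.9, 8.43 and 28.8 CPM at pathological pressure, against 36.5, 9.55 and 0 CPM at physiological pressure. Naglu had 25.6, 13.8 and 12.7 CPM at pathological pressure, against 27.4, 7.001 and 0 CPM at physiological pressure. Manba, a beta-mannosidase, and Gaa, the acid alpha-glucosidase that degrades glycogen, had log2 fold changes of 0.68 and 0.44.

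All 6 lipid-handling genes had a positive log2 fold change, with a median of 0.37, and 0 of 6 passed the test. With limma-voom Lipa (-0.22) and Ppt1 (-0.43) were negative, with a replicate block Ppt1 (-0.19), and in the hepatocyte-poor libraries Lipa (-0.42), Asah1 (-0.53) and Ppt1 (-0.36). They summed to 2655, 1446 and 1229 CPM at pathological pressure, against 1866, 1245 and 592 CPM at physiological pressure. Psap, the precursor of the saposins that help hydrolases reach sphingolipids, had 2004, 1065 and 815 CPM at pathological pressure, against 1393, 839.5 and 318 CPM at physiological pressure. Its highest library was pathological and its lowest physiological, with the others interleaved, and the log2 fold change was 0.61 (95% CI -1.09 to 2.31). Npc1, the membrane protein that exports cholesterol from the lysosome, had 109, 128 and 21.3 CPM at pathological pressure, against 79.2, 39.4 and 25.7 CPM at physiological pressure. Both extremes were pathological, and the log2 fold change was 0.84 (95% CI -1.19 to 2.87). The expected counts of Npc1 were not whole numbers in any of the 6 libraries, so they may hold reads shared with other genes. Npc2, the soluble protein that hands cholesterol to NPC1, had 321, 210.2 and 168 CPM at pathological pressure, against 209.95, 254 and 156 CPM at physiological pressure, and its log2 fold change was 0.17 (95% CI -1.14 to 1.49). Lipa, the acid lipase of cholesteryl esters and triglycerides, had 108, 18.0 and 109 CPM at pathological pressure, against 86.3, 53.6 and 46.5 CPM at physiological pressure. Pathological library 2 was the lowest and the other 2 pathological libraries the highest, and the log2 fold change was 0.34 (95% CI -1.59 to 2.27). Ppt1, which removes palmitate from proteins, and Asah1, the acid ceramidase, had log2 fold changes of 0.39 and 0.24.

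Of the 5 membrane proteins 4 had a positive log2 fold change, and their summed CPM was 2682, 3472 and 786 at pathological pressure, against 2126, 1466 and 1636 at physiological pressure. Lamp1, an abundant glycoprotein of the lysosomal membrane, had 959, 1180 and 385 CPM at pathological pressure, against 818, 554 and 443 CPM at physiological pressure. Lamp2, its relative with a role in autophagosome fusion, had 579.7, 603 and 49.9 CPM at pathological pressure, against 454, 167 and 135 CPM at physiological pressure. In both genes pathological libraries 1 and 2 were the highest and pathological library 3 the lowest of all 6. The log2 fold changes were 0.47 (95% CI -1.02 to 1.97) for Lamp1 and 0.71 (95% CI -1.48 to 2.90) for Lamp2. Cd63, a tetraspanin of late endosomes and lysosomes, had 1006, 1625 and 327 CPM at pathological pressure, against 737, 685 and 1022 CPM at physiological pressure. Both extremes were again pathological, with a log2 fold change of 0.28 (95% CI -1.36 to 1.91). Mcoln1, the calcium channel that signals to TFEB, had 69.8, 62.3 and 25.0 CPM at pathological pressure, against 62.2, 44.2 and 30.8 CPM at physiological pressure, and its log2 fold change was 0.20 (95% CI -1.64 to 2.03). Scarb2, the receptor that carries glucocerebrosidase to the lysosome, was named after its values were seen because it was at 0 in pathological library 3, where 3 counts equal 0.284 CPM. It had 67.4, 1.42 and 0 CPM at pathological pressure, against 54.0, 15.5 and 5.70 CPM at physiological pressure, and library 1 was highest in both groups.

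Of the 4 proton pump subunits 3 had a positive log2 fold change, and they summed to 950.1, 1385 and 397 CPM at pathological pressure, against 762, 608 and 510.3 CPM at physiological pressure. Atp6v0d1, part of the membrane sector, had 249.9, 486 and 237 CPM at pathological pressure, against 182, 293 and 217 CPM at physiological pressure. Atp6v1b2, part of the ATP-hydrolysing sector, had 433, 576 and 81.9 CPM at pathological pressure, against 340.5, 111 and 184 CPM at physiological pressure. Pathological library 2 was the highest for both, while the lowest was physiological for Atp6v0d1 and pathological for Atp6v1b2. The log2 fold changes were 0.49 (95% CI -0.86 to 1.84) and 0.78 (95% CI -1.11 to 2.67). Atp6v1h, a regulatory subunit, had 87.0, 114 and 49.0 CPM at pathological pressure, against 71.5, 78.2 and 109.6 CPM at physiological pressure, and its log2 fold change was -0.05 (95% CI -1.54 to 1.44), or 0.06 with DESeq2 size factors. Atp6v1a, the catalytic subunit, had a log2 fold change of 0.51 with an interval from -3.12 to 4.14, and only 1 count in physiological library 3.

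Tfeb, the transcription factor of the lysosomal gene programme, had 19.4, 36.0 and 15.6 CPM at pathological pressure, against 17.5, 22.9 and 15.4 CPM at physiological pressure. Library 2 was highest and library 3 lowest in both groups, and the log2 fold change was 0.35 (95% CI -2.05 to 2.74). Grn encodes progranulin, a secreted protein that reaches lysosomes and is needed for their function. It had 669, 124 and 145 CPM at pathological pressure, against 675, 219 and 191 CPM at physiological pressure. Library 1 was far above the others in both groups, and the log2 fold change was -0.21 (95% CI -2.23 to 1.80), or 0.35 in limma-voom with sample weights.

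Where 0 of 34 members separated the pressures, several separated the libraries by hepatocyte class, in shares near those of all genes. The sums of sinusoidal and stellate cell markers divided the libraries in the same way, but not each of their genes did. The part of each cell type was not tested. For 13 of 34 genes (38.2%, against 30.2% of all genes) the 3 hepatocyte-poor libraries all lay above the 3 hepatocyte-rich ones: Ctsa, Ctsb, Ctsd, Ctsl, Lgmn, Naglu, Psap, Npc1, Lamp1, Lamp2, Mcoln1, Atp6v1a and Atp6v1b2. For 5 of 34 (14.7%, against 18.3% of all genes) they all lay below: Ctsc, Ctsh, Hexa, Man2b1 and Ppt1. Pathological library 3 was the lowest library for 13 genes (38.2% of the members, against 41.0% of all genes) and physiological library 3 for 11 (32.4%, against 17.7%). Pathological library 2 was the highest library for 11 genes (32.4%, against 21.0%) and the lowest for 9, namely Ctsc, Ctsh, Ctsz, Hexa, Gusb, Man2b1, Lipa, Ppt1 and Grn, or 26.5% of the members against 18.1% of all genes. The 19 matched macrophage markers summed to 1024, 64.1 and 2004 CPM at pathological pressure, against 839, 1704 and 1439 CPM at physiological pressure, so pathological library 2 was also the lowest there. Of these markers Adgre1, Tyrobp, Aif1 and Timd4 were at 0 in pathological library 2, and Timd4 was at 0 in all 6. Clec4f, Lyz2, Ptprc and Spi1 were not lowest there, while all others except Timd4 were. Clec4f had 21.4 CPM in pathological library 2, above pathological library 1 and physiological library 1. Lyz2 had 4.64 CPM there, against 4.20 CPM in physiological library 2. Spi1 had 6.92 CPM there, against 0.998 CPM in physiological library 3, and Ptprc had 1.99 CPM, against 0 in pathological library 3. The part of macrophage RNA in the values of these 9 genes was not tested.

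The libraries with like hepatocyte content were then compared. Pathological library 1 and physiological library 1, the pair that differed least, had 30 of 34 members higher at pathological pressure, with a median difference of 0.27 in log2(CPM + 1), against 45.8% of all genes and a median of -0.04. The differences were small, from -0.28 to 0.61, and a single pair has no replicate check. Pathological library 2 against the same physiological library had 14 of 34 higher, with a median of -0.38, against 43.4% of all genes and a median of -0.17. In the hepatocyte-rich class, pathological library 3 had 10 of 34 higher than physiological library 2 (median -0.40), against 37.8% of all genes (median -0.15). It had 17 of 34 higher than physiological library 3 (median -0.02), against 40.1% of all genes (median 0.0). The fit of all 6 libraries was repeated with a term for the hepatocyte class, poor or rich. It called 0 of 34 members and 0 of all genes, and 12 members changed sign. The median was -0.02, beside -0.29 over all genes. Fitted within each class with edgeR, 0 of 34 members were called in the poor class (0.0% of all genes called) and 0 of 34 in the rich class (1.93% of all genes called). In each fit 1 pressure had a lone library, which is assumed to vary like the others. An unadjusted p under 0.05 was found for 0 members in the poor class (1.27% of all genes) and 2 in the rich class (9.91%). In the poor class both pathological libraries lay above the physiological one for 12 members and below it for 2 (29.5% and 39.0% of all genes). In the rich class the pathological library lay above both physiological ones for 10 members and below both for 17 (30.5% and 34.5% of all genes). In 27 of 34 members (79.4%) the 2 classes gave opposite signs, against 51.8% of the 11642 genes tested in both. Of these, 16 were positive in the poor and negative in the rich class, as for Ctsd at 0.69 and -0.44 and Npc1 at 0.59 and -0.60. The reverse held for 11. Cd63 gave 0.84 in the poor class and -1.37 in the rich class, where its edgeR adjusted p was 0.176, and Lamp2 gave 0.39 and -1.58, with an adjusted p of 0.357. The difference between classes was tested as an interaction, chosen after seeing the data. It called 0 of 12742 genes with edgeR (10.4% had an unadjusted p under 0.05), and the smallest adjusted p of a member was 0.404. Lamp2 and Cd63 were the 2 members with an unadjusted p under 0.05, at interaction log2 values of -1.98 and -2.22.

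**Figure D5:**
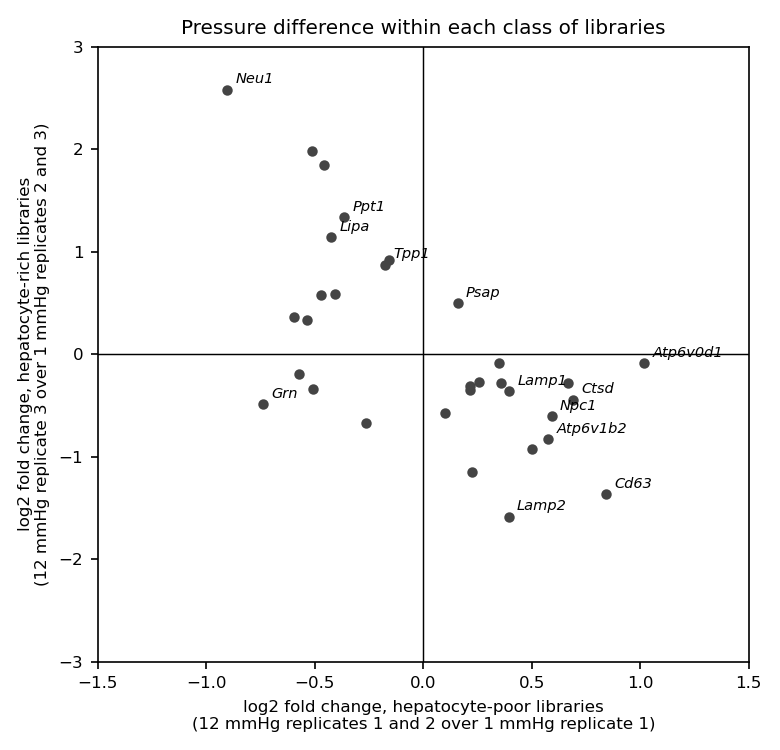
Log2 fold change of the members, 12 mmHg over 1 mmHg, fitted in the 3 hepatocyte-poor libraries (x axis) and in the 3 hepatocyte-rich libraries (y axis); each point is a gene, and 32 of 34 fall inside the axes. Cd63 and Lamp2 lie at the lower right, positive in the poor class and negative in the rich class.

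Further genes of the same system gave no call either: 0 genes passed the edgeR test in each of 8 lists, against 0.0% of all 12742 genes. In these lists only Hyal2 and Atp6v0c had groups that did not overlap, whereas 4.61% of all genes did not overlap. Among 39 further hydrolases tested, 15 log2 fold changes were positive and 24 negative, with a median of -0.14. Hyal2, a hyaluronidase, was the gene of this list whose groups did not overlap, with 10.9, 9.33 and 3.41 CPM at pathological pressure, against 31.6, 70.3 and 12.7 CPM at physiological pressure. Its log2 fold change was -2.28, and its edgeR p was 0.0904 before and 1.00 after adjustment. Gm2a, the activator protein of ganglioside breakdown, had a log2 fold change of -0.97. Among 28 further lysosomal membrane genes, 21 were positive and 7 negative (median 0.36), with Laptm4b at 1.43 and Laptm4a at 0.59. Among 12 further pump subunits, 8 were positive and 4 negative (median 0.17), with Atp6v1c1 at 0.59. Atp6v0c, which forms the proton-carrying ring, did not overlap: it had 419, 429 and 391 CPM at pathological pressure, against 317, 288 and 341 CPM at physiological pressure, or 413 ± 20.004 and 315 ± 26.7 CPM (SD, n = 3 each). Its log2 fold change was 0.39 and its edgeR adjusted p 1.00. Among 19 genes of the TFEB family and its control by mTORC1, 14 were positive and 5 negative (median 0.42). Flcn, folliculin, which acts on the Rag GTPases, had 136, 117 and 115 CPM at pathological pressure, against 117, 34.3 and 33.4 CPM at physiological pressure, a log2 fold change of 1.00. Rragc, a Rag GTPase that recruits mTORC1 to the lysosome, had 315, 454 and 156 CPM at pathological pressure, against 259, 161 and 95.5 CPM at physiological pressure. Of the other lists, autophagy had 18 positive and 12 negative (median 0.11; Atg16l1 at 1.03 and Atg5 at 0.76) and endosomal sorting 21 and 12 (median 0.17; Snx5 at -0.66 and Vps41 at -0.92). Protease inhibitors had 2 positive and 5 negative (median -0.44; Serpinb1a at -2.09 and Cstb, a cathepsin inhibitor, at -0.51).

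Scavenger receptors feed the lysosomes of these cells, but the list of them also holds Cd163 and Marco, which are in the macrophage marker list too. The list summed to 1370.3, 547 and 4930 CPM at pathological pressure, against 1973, 4360 and 3695 CPM at physiological pressure, with the hepatocyte-rich libraries higher. Of 17 tested, 3 log2 fold changes were positive and 14 negative, with a median of -0.54. Stab2, the hyaluronan receptor stabilin-2, had 2.79, 15.3 and 204 CPM at pathological pressure, against 8.09, 208 and 173 CPM at physiological pressure. It was highest in the hepatocyte-rich libraries of both groups, where Ctsd, Lamp2 and Npc1 were lowest. Stab1, its relative, had 7.19, 11.3 and 40.8 CPM at pathological pressure, against 27.9, 38.1 and 18.4 CPM at physiological pressure. Mrc1, the mannose receptor that also takes up lysosomal enzymes, had 401, 37.8 and 239 CPM at pathological pressure, against 416, 182 and 178 CPM at physiological pressure. Colec12 and Clec4g, with the smallest p-values of this list, had log2 fold changes of -2.52 and -1.43.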

How the data were processed

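The files deposited by the authors hold expected counts (estimated reads per gene, not normalized), per the file headers, with a file for each library. The submitters' processing notes name STAR, RSEM and limma but no versions. Genome build, annotation and strand setting: not given in the sources used here; overlapping and antisense genes are therefore uncertain. Per library, 4.33% to 10.4% of values were not whole, to a tolerance of 1e-06.

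Expected counts were rounded and compared on all genes with edgeR 4.0.16 (R 4.3.3), using its quasi-likelihood test, TMM scaling and filterByExpr. P-values were two-sided and adjusted by the Benjamini-Hochberg method over 12742 genes, with a threshold of 0.05. CPM were computed here with TMM-scaled totals, except the hepatocyte sums, which used unscaled totals. CPM are not per length, so levels of different genes were not compared. Log2 fold changes are pathological over physiological. Intervals cover the fit, and floors of 3 counts cover counting error only. All pairs of libraries differed beyond sampling noise (chi-square per degree of freedom from 74.9 to 1100).

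The members and lists were chosen with earlier results of these data known. Symbols of the lists were found in the files for 360 genes and not for 17, and 1 with several identifiers was left out. Named genes were members without overlap (none), the 5 with the smallest p in each direction, a fixed set of 16, and from each other list the 2 with the smallest p plus Stab1, Stab2 and Mrc1; others were chosen after their values were seen. The alternatives were other scalings, filters, DESeq2 1.42.0, limma-voom 3.58.1, a hepatocyte term, each hepatocyte class alone (divided at 10000 summed CPM), a block of neighbouring sample numbers and leaving out each library; the interaction was added after seeing the data. The edgeR step was tested on simulated counts.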

Additional observations from a re-analysis of the deposited data

How the results depend on the processing

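The count of 0 called members held under each of 18 alternatives, most of which called no gene at all. With sample weights in limma-voom the smallest adjusted p of a member was 0.207, and 6 members had an unadjusted p under 0.05, against 19.8% of all genes. The count of negative log2 fold changes, 10 as reported, was 18 with the hepatocyte term, 17 in the hepatocyte-poor and 22 in the hepatocyte-rich libraries (61.3%, 54.4% and 61.4% negative over all genes), and 7 to 14 when each library was left out. The member median of 0.32 was -0.28 in the hepatocyte-rich libraries, beside -0.58 over all genes, and 0.11 to 0.71 when each library was left out; with the hepatocyte term it was -0.02, beside -0.29 over all genes. The count of members without overlap, 0 as reported, was 14 in the hepatocyte-poor and 27 in the hepatocyte-rich libraries, where fewer samples are compared (68.5% and 65.0% of all genes). It was 0 to 9 when each library was left out; the 9 came without pathological library 3, where the share was 24.1% of all genes. In the other lists Nbr1, an autophagy receptor named after its values were seen, had a log2 fold change of -2.03 in the hepatocyte-rich libraries alone. That fit rests on a lone pathological library, with 86.5 CPM, against 378 and 336 CPM in physiological libraries 2 and 3. DESeq2 size factors gave 8 negative members and a median of 0.41, beside 0.15 over all genes; Ctsz and Atp6v1h changed sign under them, and Ctsz with unscaled totals. With limma-voom Lipa, Ppt1 and Atp6v1h changed sign, with sample weights Glb1, Lipa, Ppt1, Atp6v1h and Grn, and with the block Glb1 and Ppt1. The labels give neighbouring sample numbers but no pairing. The deviations of neighbours correlated at 0.717, -0.263 and 0.433 across genes. Non-neighbours of the same hepatocyte class also correlated, pathological 2 with physiological 1 at 0.460 and pathological 3 with physiological 2 at 0.363. Every pathological and physiological pair from different classes correlated negatively. With a replicate block 0 members and 0 of all genes were called, 10 members were negative and the member median was 0.25. The spread between libraries limits these comparisons, and so do counts of 0 to 2 in single libraries (Glb1, Neu1, Naglu, Atp6v1a, Manba and Scarb2). These low counts did not simply follow depth. Glb1 had 2 counts in physiological library 2 but 334 in physiological library 3, the library with the smallest total. Their source was not tested.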
